A study of Mus musculus with 8 samples.

Results

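Oxidative phosphorylation is run by protein complexes of the mitochondrial inner membrane, and most of their subunits are encoded by nuclear genes. Complexes I (NADH dehydrogenase) and II (succinate dehydrogenase) take electrons from metabolism, complex III (the cytochrome bc1 complex) passes them through cytochrome c to complex IV (cytochrome c oxidase), and complex V (ATP synthase) uses the resulting proton gradient to make ATP. Blood stem cells are known for their low reliance on this pathway, while dividing and maturing progenitors use it more.

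The genes described here are the nuclear oxidative phosphorylation genes on a pair of promoter arrays, taken by symbol: every name that begins with Nduf, Uqcr, Atp5, or Cox followed by a digit from 4 to 8, together with Sdha, Sdhb, Sdhc, Sdhd and Cycs. The rule uses names alone and no measured value, though the set was proposed with results of these data known. It gave 81 genes out of 16908, of which 40 were on array 1 and 41 on array 2. By role, 34 belong to complex I, 4 to complex II, 7 to complex III, 16 to complex IV and 15 to complex V, and Cycs encodes cytochrome c. The other 4 carry a matching symbol but are not subunits: Ndufaf1 is a complex I assembly factor, Cox7a2l acts in supercomplex assembly, Cox4nb is now named Emc8, and Atp5s is now named Dmac2l.

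The series concerns HoxB4, a homeobox transcription factor used to expand blood progenitors in culture. The cells came from the mouse ES cell line B6N-22UTR: after 6 days as embryoid bodies, c-Kit+CD41+ precursors were placed on OP9, a bone marrow stromal line, and given a retrovirus for HoxB4 with a triple FLAG tag (3xFLAG-HoxB4). On day 12 of co-culture the c-Kit+ cells were collected on magnetic columns for chromatin immunoprecipitation on arrays (ChIP-chip). Flag-immunoprecipitated DNA (Flag-IP) was labelled with Cy5 and input DNA with Cy3, after amplification of both by T7 RNA polymerase. Both arrays carry the same group, with no control-virus immunoprecipitation used here, so that each promoter has 1 measurement and no replicate and no test between conditions was possible. The tagged protein was overexpressed, so the values are not those of HoxB4 at its own level. The arrays carry DNA, so the labelled cell type could not be checked against markers, and the series' 6 expression arrays were not analysed here.

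Each value is log2 of Flag-IP over input, centred so that the median probe of an array is 0. The arrays had 237195 and 237185 probes, of which 95.3% on either array read well above background in Flag-IP and input alike. Signal was summarised per gene in 2 ways. The gene-start mean is the mean over probes within 500 bp of the annotated start, and the highest window is the largest median of 3 neighbouring probes anywhere in the region tiled for the gene. A log2 ratio of 1 was used as the fold, with 2 as a stricter one. SDs below are over neighbouring probes of a single array, which describe the spread along the DNA and not between samples, and the number of arrays limits the precision.

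Flag-HoxB4 signal at the starts of oxidative phosphorylation genes was higher than at gene starts in general. Their median gene-start mean was 0.73 (quartiles 0.48 to 1.08, 80 genes), against 0.32 (quartiles -0.04 to 0.68) over the 16237 genes with probes there. Ndufb11 had no probe near its start. A gene-start mean of at least 1 was found in 26 of 80 genes (32.5%), against 11.5% of all genes. That count depends on the distance taken: within 1000 bp of the start 6 members (7.41%) reached 1, against 5.74% of all genes. A mean above 0 was found in 75 of 80 (93.75%) against 73.2%, and no member lay at -1 or below, where 4.59% of all genes lay. Of the members, 43 of 80 had every probe near the start above 0 (53.75%), against 35.6% of all genes. Of the members' 365 start probes, 317 (86.8%) were above 0, against 70.4% over all genes. Both arrays did so separately. On array 1 the median was 0.73 for members and 0.34 for all its genes, and on array 2 it was 0.69 and 0.31.

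Peak heights differed less than start means. The median highest window was 1.14 for members and 0.91 for all genes, and 49 of 81 members (60.5%) reached 1, against 43.3% of all genes. With the brightness trend removed the order turned, to 24 members (29.6%) against 35.5%. At the stricter fold of 2 the share was no higher: 2 of 81 members (2.47%), Atp5l and Ndufs8, reached it, against 3.15% of all genes. The highest signal was often close to the start. The highest window lay within 500 bp of the start in 53 of 81 members (65.4%), against 36.5% of all genes. Windows at or below -1 were found somewhere in 41 members (50.6%), near the 54.8% of all genes.

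**Figure D1:**
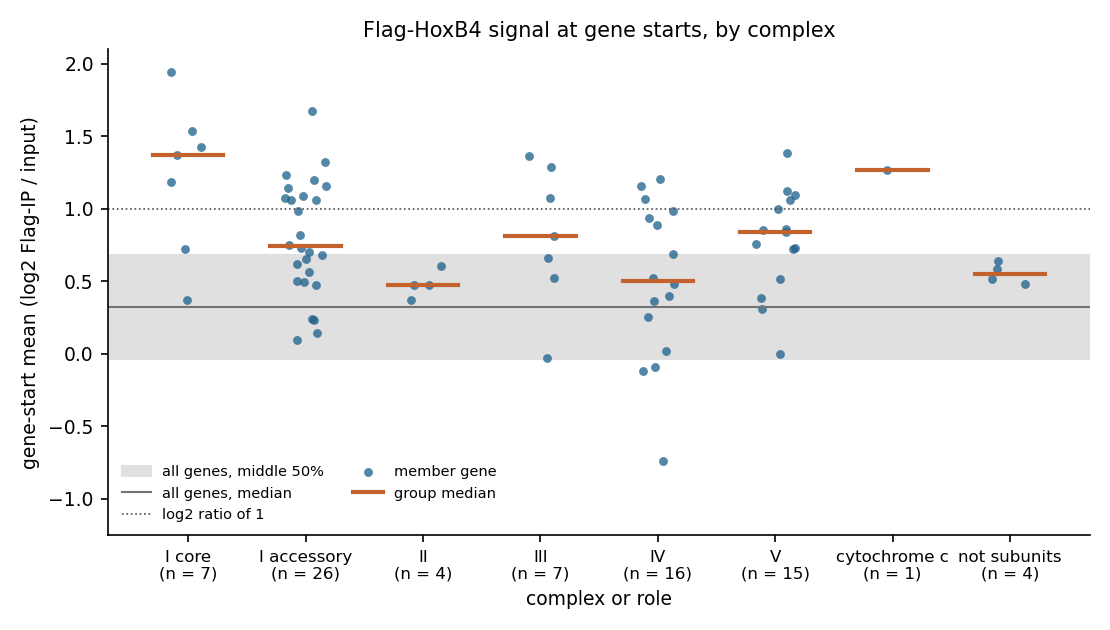
Gene-start mean (log2 Flag-IP over input, vertical axis) of each oxidative phosphorylation gene, 1 point per gene, by complex or role on the horizontal axis. The bars are group medians, the grey band the middle 50% of all genes (-0.04 to 0.68) and the dotted line a log2 ratio of 1. The core genes of complex I have the highest median of the groups with more than 1 gene, 1.37, and Cox8c is the lowest point at -0.74.

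By distance, the members' signal was a narrow rise centred just after the start. The mean over genes was 0.63 in the 500 bp before the start and 0.83 in the 500 bp after it, against 0.21 and 0.37 for all genes. From 500 to 1000 bp after the start members and all genes were at the same level, 0.11 and 0.10, and further out both were mostly below 0. The narrow rise was not particular to the members. In the same steps from -500 to 1000 bp, mitochondrial ribosomal protein genes were at 0.71, 0.85 and 0.14. Proteasome genes were at 0.40, 0.83 and 0.18. Cytosolic ribosomal protein genes, shown for comparison, differed in shape: at 0.92 and 1.04 on either side of the start, they were still at 0.74 from 500 to 1000 bp and 0.62 from 1000 to 1500 bp.

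**Figure D2:**
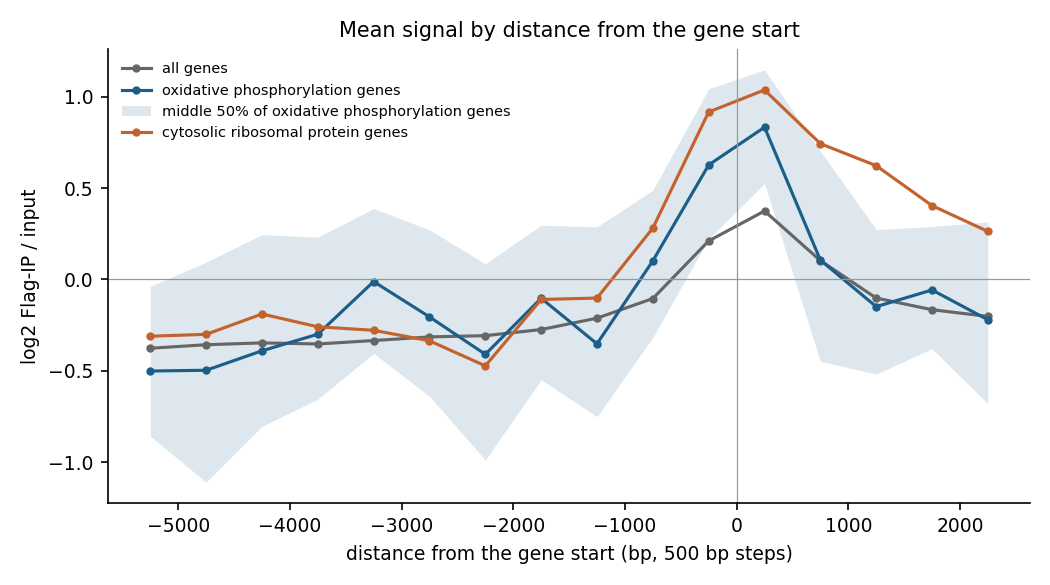
Mean log2 Flag-IP over input (vertical axis) in 500 bp steps of distance from the gene start (horizontal axis, bp), for oxidative phosphorylation genes, cytosolic ribosomal protein genes and all genes. The shaded band is the middle 50% of the oxidative phosphorylation genes, whose line peaks at 0.83 in the first 500 bp after the start and is at 0.11 in the next step.

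The raised start signal was shared with other large housekeeping families. Measured in the same way, mitochondrial ribosomal protein genes (72) had a median gene-start mean of 0.82, cytosolic ribosomal protein genes (79) 0.90 and proteasome genes (37) 0.64. The share at 1 or above was 33.3%, 40.5% and 18.9% in that order, beside the members' 32.5%. The members' median and share lay within the range of these families. The members were also above all genes in both classes of promoter CpG content. Of the 66 members with a RefSeq promoter, 43 had a CpG-rich one (GC of at least 55% and an observed over expected CpG of at least 0.6), with a median gene-start mean of 0.72 against 0.46 for all CpG-rich genes. The 22 other members with start probes had a median of 0.94, against 0.18 for all other genes. Across genes, which are not independent and share 2 arrays, the correlation of the start mean with promoter GC content was positive over all genes (Pearson's r 0.36, Spearman's rho 0.25, 12799 genes) and negative over members (r -0.27, rho -0.26, 65 genes). Signal also differed with spot brightness. In the dimmest quartile of input signal the median was 0.50 for 9 members and -0.06 for all genes, and in the brightest it was 0.67 for 26 members and 0.41 for all genes. The values with the brightness trend removed are given with the other processing choices at the end.

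Complex I, which takes electrons from NADH and pumps protons, held the members with the highest start means. As a whole it was not the highest group, since its 33 genes with start probes had a median of 0.82, beside 0.84 for complex V, and 15 of them reached 1. The 7 core subunits, which carry the electron path and are conserved from bacteria, had a median of 1.37 with 5 of 7 at 1 or above, and the 26 accessory subunits a median of 0.74 with 10 of 26. Ndufs8, an iron-sulfur subunit of the core, was the highest of all members. Its 4 start probes on array 2 read 2.36 at -354 bp, 1.49 at -216 bp, 2.36 at -102 bp and 1.56 at 84 bp, a mean of 1.94 (SD 0.48). All 4 were above 0.68, the upper quartile of all genes, though that is a quartile of gene-start means and not of single probes. By its mean the gene stood at percentile 99.5 of gene starts. Its highest window, 2.36, lay on chromosome 19 from 3912796 to 3913095, in the files' own coordinates. The sources used here do not name the genome build of these coordinates.

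Ndufs7, the core subunit that holds the last iron-sulfur cluster before ubiquinone, had start probes at 1.61, 1.35, 2.15 and 1.04, a mean of 1.54 (SD 0.47). Ndufs3, another core subunit, had 2 start probes, at 1.09 and 1.76. The pair gives a mean of 1.42 that rests on few probes, and normexp gave 2.14. Further core genes were Ndufs1 at 1.19, Ndufv1 at 0.72 and Ndufv2 at 0.37, so the core means under 1 were those of Ndufv1 and Ndufv2, which lie at the NADH-oxidising tip of the complex.

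Among accessory subunits, Ndufa9, which sits where the matrix and membrane arms meet, was the highest. All of its 6 start probes on array 1 were above 1, from 1.32 to 2.06, with a mean of 1.67 (SD 0.31). It was the second highest start among members and the third highest window, 1.99, on chromosome 6 from 126814921 to 126815191. Ndufa7 had a mean of 1.32 over 3 probes, from 1.03 to 1.74. Ndufc1, a small membrane subunit, had a mean of 1.23 and a highest window of 1.69. At the other end, Ndufab1, the mitochondrial acyl carrier protein, had start probes at 0.20, 0.84 and -0.35 and a mean of 0.23, and no window above 0.63. Ndufs6, a zinc-binding accessory subunit, had a mean of 0.24 and a highest window of 0.48. Ndufb11 had no window above 0.49.

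Complex II, which links the citric acid cycle to the chain, was even, with an SD of 0.0965 between its genes against 0.459 over all members. None of its 4 genes reached a start mean of 1. Sdha, the flavoprotein, had a mean of 0.61 (SD 0.46, 4 probes), Sdhb, the iron-sulfur protein, 0.37 (SD 0.66, 4 probes), Sdhc, a membrane anchor, 0.47 (SD 0.49, 4 probes) and Sdhd, the other anchor, 0.48 (SD 0.49, 2 probes). These means differ by less than the spread of the probes within each gene. Sdhc had the lowest highest window of all members, 0.39.

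The 7 genes of complex III had start means from -0.03 to 1.36, with a median of 0.81 and 3 at 1 or above. Uqcrb, Uqcrq, Uqcrh and Uqcrc2 had means of 1.07, 0.81, 0.66 and 0.53. Uqcrc1, a core protein of the complex, had start probes at 1.96, 0.91, 0.97 and 1.60 with a mean of 1.36, and Uqcr, now named Uqcr11, had 2 probes at 0.87 and 1.70 with a mean of 1.29. Uqcrfs1, the Rieske iron-sulfur protein and a catalytic subunit, had a mean of -0.03 over 5 probes, from -1.07 to 0.39. Uqcrc1 and Uqcrfs1 were the highest and lowest genes of the complex, and with normexp Uqcrfs1 was at 0.16. Cycs, the mobile carrier between complexes III and IV, had probes at 1.49, 0.24, 1.54 and 1.79 and a mean of 1.27 (SD 0.69), with only the probe 64 bp upstream of the start low.

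Complex V had a median of 0.84, with 4 of 15 genes at 1 or above. All 4 encode the membrane part or stalk, 4 of its 10 genes, and none of the 5 genes of the catalytic F1 head reached 1. Atp5d, an F1 subunit, rounds to 1.00 and lies just under it. The medians did not follow this split, at 0.81 for the 10 membrane and stalk genes and 0.84 for the 5 F1 genes. Atp5l, subunit g of the membrane part, had the highest window of all members, 2.75, on chromosome 9 from 44671986 to 44672342. Its signal lay upstream. The start probes read 2.75 at -490 bp and 2.93 at -315 bp, but 0.83 at -147 bp and 0.32, 0.81 and 0.68 past the start. The mean of 1.39 (SD 1.14) joins these unlike parts, and within 250 bp of the start it was 0.58. Atp5g1, which encodes the ring subunit c, had a like profile, with 1.80, 2.27 and 1.29 upstream, then -0.24 at -22 bp and 0.53 and 0.69 past the start. Atp5f1, the stalk subunit b, held only 2 start probes, with a mean of 0.86. Its highest window of 1.95 was reached through 2 neighbouring probes not assigned to it, and by the middle probe it was 1.00. Atp5j, coupling factor 6, was flat: its 5 probes lay between -0.26 and 0.14 with a mean of -0.00. Its highest window of 1.10 was reached only through 2 neighbouring probes not assigned to it, and counting windows by their middle probe gave 0.28.

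**Figure D3:**
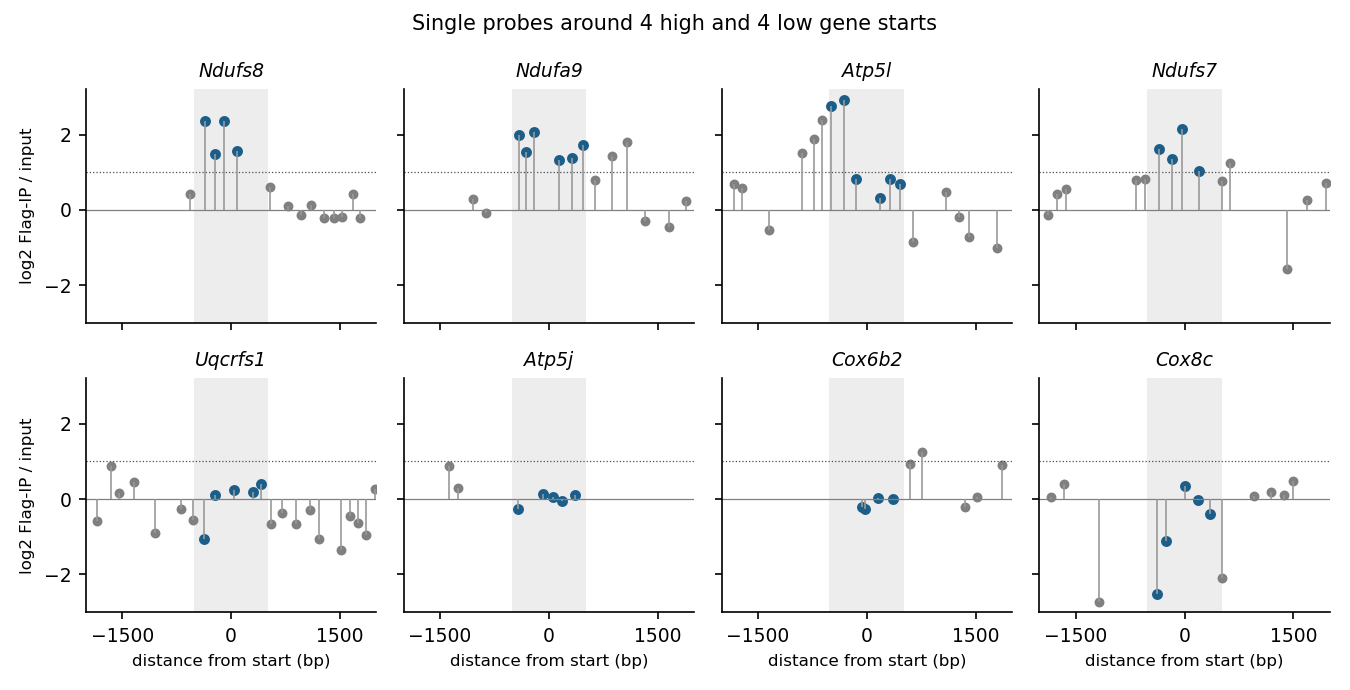
Single probes (points, log2 Flag-IP over input on the vertical axis) by distance from the gene start (horizontal axis, bp) for 4 members with high start means and 4 of the 5 with the lowest. The grey field is the 500 bp on each side of the start, and the dotted line a log2 ratio of 1. All start probes of Ndufs8 and Ndufa9 lie above 1, those of Atp5l exceed 2 only at -490 and -315 bp, and those of Atp5j stay between -0.26 and 0.14.

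The promoters of some of these genes are shown: 4 with high start signal (Ndufs8, Ndufa9, Atp5l and Cycs), the only 2 members with the Hox-Pbx letters described below (Uqcrc1 and Ndufa4, with start means of 1.36 and 1.07), and 2 without raised signal (Uqcrfs1 and Cox6b2). Each is the 250 bases upstream of the first RefSeq start, 5' to 3' on the gene's strand, in build GRCm38.p6. The signal need not lie in the printed bases. By the arrays' distances, the highest window of Ndufs8 lay around -216 bp, but those of Atp5l, Cycs and Ndufa4 around -490, 307 and 229 bp. Capitals mark, on either strand, CGCATGCG (nuclear respiratory factor 1, NRF1), CCGGAAG (the ETS family, which includes GABP), ATGGCGG (YY1), TAAT (the homeobox core) and TGATNNAT (Hox with Pbx). The RefSeq positions are chr19:3912775-3913024 (minus strand) for Ndufs8, chr6:126849145-126849394 (minus strand) for Ndufa9, chr9:44920743-44920992 (minus strand) for Atp5l, chr6:50566570-50566819 (minus strand) for Cycs, chr9:108936398-108936647 (plus strand) for Uqcrc1, chr6:11907451-11907700 (minus strand) for Ndufa4, chr13:30545317-30545566 (minus strand) for Uqcrfs1 and chr7:4753095-4753344 (minus strand) for Cox6b2.
Ndufs8: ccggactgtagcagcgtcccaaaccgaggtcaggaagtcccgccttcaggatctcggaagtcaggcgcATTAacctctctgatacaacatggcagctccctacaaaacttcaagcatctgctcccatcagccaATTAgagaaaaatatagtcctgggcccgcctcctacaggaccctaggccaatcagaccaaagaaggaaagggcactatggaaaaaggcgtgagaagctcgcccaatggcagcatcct
Ndufa9: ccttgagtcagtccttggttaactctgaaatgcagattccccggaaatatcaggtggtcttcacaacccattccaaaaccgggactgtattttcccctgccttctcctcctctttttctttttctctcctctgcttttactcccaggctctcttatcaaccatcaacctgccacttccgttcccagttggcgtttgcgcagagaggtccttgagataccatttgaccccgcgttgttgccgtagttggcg
Atp5l: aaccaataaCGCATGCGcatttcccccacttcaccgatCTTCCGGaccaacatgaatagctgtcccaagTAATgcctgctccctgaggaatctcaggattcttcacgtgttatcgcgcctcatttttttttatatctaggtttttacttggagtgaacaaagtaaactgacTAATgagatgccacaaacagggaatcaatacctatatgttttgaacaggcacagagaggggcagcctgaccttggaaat
Cycs: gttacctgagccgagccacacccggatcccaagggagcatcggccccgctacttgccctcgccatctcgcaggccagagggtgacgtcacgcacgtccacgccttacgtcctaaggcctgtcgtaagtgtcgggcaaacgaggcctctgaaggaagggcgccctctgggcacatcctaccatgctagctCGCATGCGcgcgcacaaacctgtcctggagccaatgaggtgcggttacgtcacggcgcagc
Uqcrc1: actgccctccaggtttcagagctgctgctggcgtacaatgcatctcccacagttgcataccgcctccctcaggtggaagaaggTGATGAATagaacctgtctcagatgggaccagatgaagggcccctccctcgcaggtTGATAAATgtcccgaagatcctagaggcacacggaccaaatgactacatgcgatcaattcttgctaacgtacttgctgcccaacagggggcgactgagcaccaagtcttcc
Ndufa4: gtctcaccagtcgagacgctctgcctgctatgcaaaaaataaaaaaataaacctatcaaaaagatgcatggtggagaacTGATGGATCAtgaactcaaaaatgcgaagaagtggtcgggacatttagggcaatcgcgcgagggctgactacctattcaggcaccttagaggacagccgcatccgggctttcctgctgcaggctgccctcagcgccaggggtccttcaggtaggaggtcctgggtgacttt
Uqcrfs1: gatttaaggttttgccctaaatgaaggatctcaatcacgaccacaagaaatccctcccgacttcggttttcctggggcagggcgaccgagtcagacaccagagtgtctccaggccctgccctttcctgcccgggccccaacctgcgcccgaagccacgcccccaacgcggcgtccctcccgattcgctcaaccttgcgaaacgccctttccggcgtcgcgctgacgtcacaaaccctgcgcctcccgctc
Cox6b2: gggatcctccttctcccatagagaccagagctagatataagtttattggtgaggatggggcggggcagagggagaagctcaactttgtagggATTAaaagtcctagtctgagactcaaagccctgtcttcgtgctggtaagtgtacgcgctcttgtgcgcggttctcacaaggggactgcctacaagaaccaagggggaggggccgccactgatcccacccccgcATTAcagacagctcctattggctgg

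The window searched was the 250 bases before and 50 after the first start. There the letters of NRF1, the ETS family and YY1 were more frequent in members than among promoters at large. CGCATGCG was found in 8 of 66 members (12.1%), against 1.91% of all 27025 promoters and 2.81% of those of genes on the arrays. CCGGAAG was found in 16 (24.2%), against 9.12% and 13.3%, and ATGGCGG in 9 (13.6%), against 4.19% and 6.04%. Letters tied to HoxB4's own class of factor were less frequent in members. TAAT was found in 23 (34.8%), against 58.3% and 49.6%, and TGATNNAT in 2 (3.03%), against 9.04% and 6.62%. Of letters without that tie, GGGCGG (Sp) and CCAAT, were found in 29 (43.9%) and 28 (42.4%) members. GGGCGG is in 35.9% of all promoters and 52.0% of array promoters, so it was less frequent in members than among array promoters. Sp1 is also among the listed regulators of mitochondrial genes described below. CCAAT is in 37.9% of all promoters and 38.8% of array promoters. TATAAA was found in 6 members (9.09%), against 14.2% and 12.2%. Both strands were searched, and letters may overlap, as CCAAT and TAAT do at Atp5b. A match is a description of the letters and not a site of binding, and the arrays' probes could not be placed on this build.

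Signal did not follow these letters in a single way. The 8 members with CGCATGCG had a median gene-start mean of 1.19 and the 57 without it 0.75, while over all array genes the medians were 0.44 with and 0.34 without. For CCGGAAG the medians were 0.70 with and 0.82 without among members, and 0.63 and 0.29 over all genes. For TAAT they were 0.84 and 0.69 among members, and 0.27 and 0.38 over all genes. For TGATNNAT the medians were 1.21 for the 2 members with it and 0.75 for the 63 without. Over all genes the order was the opposite, 0.03 for 829 genes with it and 0.35 for 11970 without. The highest start, Ndufs8, has TAAT letters and none of the NRF1 letters, and Ndufa9, the next, has neither. Cycs and Atp5l carry CGCATGCG, at -61 and -241 bases from the start, while Cox6b2, with a start mean of -0.12, also holds TAAT letters.

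Complex IV had the widest range of start means and the lowest median of the complexes after complex II, 0.50, with 3 of 16 genes at 1 or above. Several of its subunits exist as a ubiquitous form and a form restricted to muscle, lung or testis. The 7 ubiquitous isoform genes had a median gene-start mean of 0.93 and the 5 restricted ones 0.37. With Cox7b2, a testis form outside the naming rule (listed as 4930503B16Rik), the 6 restricted genes had a median of 0.13. Between the 7 ubiquitous and the 5 restricted members, without Cox7b2, the difference in medians was 0.91 within 250 bp of the start and -0.0087 within 1000 bp. Ubiquitous Cox8a read 1.77, 1.31 and 0.52 (mean 1.20), Ndufa4, now counted as a complex IV subunit, had a mean of 1.07 over 6 probes, Cox7b 0.99, Cox7a2 0.93, Cox6b1 0.89 and Cox6a1 0.68. Cox6a1 was the most uneven of them, with 1.85 and 1.77 upstream and -1.51 at 437 bp past the start, and had a highest window of 1.77. None of the restricted forms reached the ubiquitous median.

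Among the restricted genes, heart and muscle Cox6a2 had a mean of 0.52, lung Cox4i2 0.40 and muscle Cox8b 0.37. Testis Cox6b2 was flat, with probes at -0.22, -0.26, 0.02 and 0.00 and a mean of -0.12. Testis Cox8c was the lowest member, with probes at -2.52, -1.12, 0.35, -0.02 and -0.39 and a mean of -0.74 (SD 1.13). The Flag-IP signal of its lowest probe was not well above background, and with such probes left out the mean was -0.32. Its low probes lay upstream, and within 250 bp of the start the mean was 0.16. Cox4i1, the ubiquitous form of subunit 4, broke the pattern: its probes read 0.35, -0.39 and -0.22, a mean of -0.09, below its lung form Cox4i2. With the normexp background correction these means were 0.54 and 0.85. In the pairs with a ubiquitous and a restricted form both measured, the ubiquitous form was the higher for subunits 6a, 6b, 7b (with Cox7b2 at -0.68) and 8 and the lower for subunit 4. For 6a the difference is within the spread of Cox6a1's probes (SD 1.37). The probes of Cox6b1 ran from 0.16 to 1.82 and those of Cox6b2 from -0.26 to 0.02.

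**Figure D4:**
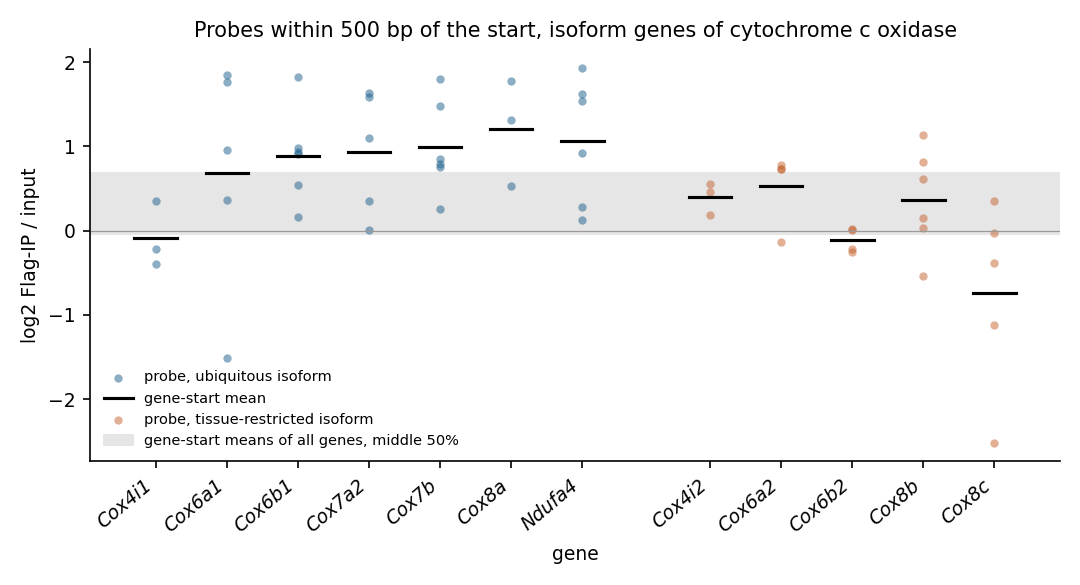
Log2 Flag-IP over input (vertical axis) of each probe within 500 bp of the start (points) for ubiquitous and tissue-restricted isoform genes of cytochrome c oxidase (horizontal axis). Black bars are gene-start means and the grey band is the middle 50% of all genes' start means. Ubiquitous means run from 0.68 to 1.20 apart from Cox4i1 at -0.09, and restricted means from -0.74 to 0.52.

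Some members share probes with a neighbour on the opposite strand, and such a probe's signal belongs to both. Of the 81 genes, 28 had a probe annotated to both themselves and a divergent gene. The starts were at most 500 bp apart for 14 of them, with a median gene-start mean of 0.63, and up to 10054 bp apart for the other 14, where the probes shared lie in the tiled region and the starts are separate. Over the 28 the median was 0.70, beside 0.73 for the other 53, while over all genes those with such a probe had 0.54 and those without 0.28. Ndufb5, an accessory subunit, and Mrpl47, a mitochondrial ribosomal protein gene, start 287 bp apart, share the window of 1.96 and had start means of 0.98 and 1.45. The window is assigned to Ndufb5 through 1 of its 3 probes, and by its middle probe Ndufb5 had a highest window of 1.52. Ndufb3 and its partner, listed as BC049806 and now named Fam126b, start 357 bp apart and share a window of 1.72. Ndufs3 starts 64 bp from Kbtbd4, whose own start mean was 0.32, and Cox4i1 starts 177 bp from Cox4nb, at 0.58. In these close pairs the arrays cannot say which gene a bound region serves.

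Genes of the pathway outside the naming rule had list medians from 0.46 to 0.75. Of 38 assembly factors listed, 33 were measured, with a median gene-start mean of 0.66, and 9 of the 33 reached 1, with Taco1 (listed as Ccdc44), a translation activator for complex IV, highest at 1.55 and Surf1, a complex IV assembly factor, at 1.47. Of 15 regulators of mitochondrial genes, 14 were measured, with a median of 0.64. Of the 14, 3 reached 1. Tfb2m, a mitochondrial transcription factor, was at 1.57 (SD 1.01, 3 probes) and Gabpb2, a GABP subunit, at 1.42 (SD 1.13, 4 probes). Gabpa, the DNA-binding GABP subunit, was at 1.16 over 2 probes, at 1.10 and 1.22. These are the values of the 2 neighbouring probes in the highest window of Atp5j. Nrf1 was at 0.11 and Ppargc1a, a coactivator of mitochondrial genes, at -0.31. All 17 enzymes listed for the citric acid cycle were measured, with a median of 0.75, and 7 reached 1, among them Fh1 (fumarase) at 1.33. The 5 subunits or close relatives with other names had a median of 0.46. Usmg5, at 1.46, and 2010107E04Rik, at 1.03, reached 1, while Atpif1 was at 0.46, Cyct at 0.19 and Cyc1, the cytochrome c1 of complex III, at 0.08. As for the members, these shares stand beside the 11.5% of all genes.

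The difference at gene starts kept its direction under every processing tried, while the difference in highest windows did not. Some of these choices could hardly have changed a direction. The deposited log ratios are nearly the same as the main values, and leaving out the centring shifts members and all genes almost alike. The members' median gene-start mean exceeded that of all genes by 0.40 as reported and by 0.27 to 0.47 under the alternatives. When the trend of the ratio with spot brightness was removed by loess, the medians were 0.46 and 0.19, and 9 members (11.25%) reached 1 against 4.71% of all genes. With that trend removed, the median highest window of members was below that of all genes, 0.81 against 0.83. The core genes of complex I had a start median of 1.07 in that setting. With the normexp background correction their median was 1.143 and that of complex III 1.145, so the core was not the highest group there.

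**Figure D5:**
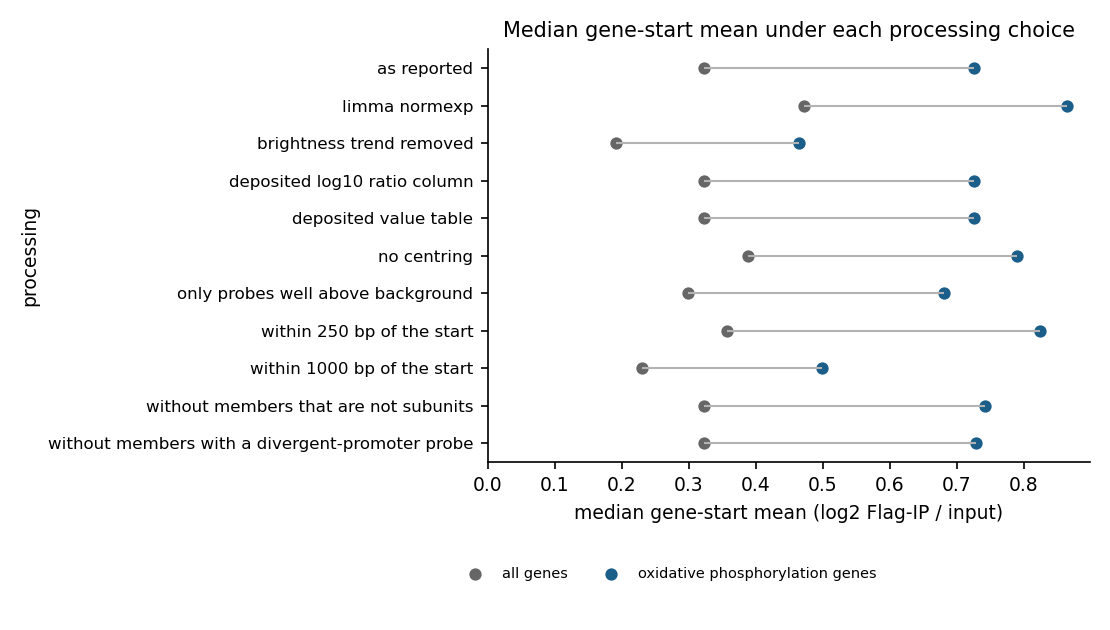
Median gene-start mean (horizontal axis, log2 Flag-IP over input) of oxidative phosphorylation genes and of all genes under each processing choice (vertical axis). Lines join the 2 medians of a choice: the members' median is to the right in each, by 0.27 to 0.47. The deposited log ratios nearly repeat the values as reported, and leaving out the centring shifts both medians almost alike.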

How the data were processed

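Flag-IP (Cy5) and input (Cy3) DNA were compared on 2 Agilent promoter arrays. The deposited intensity values of both dyes were background-subtracted, spatially detrended and linearly dye-scaled by the authors, per the file headers, which name Agilent Feature Extraction 10.1.1.1. As alternatives, unprocessed spot intensities from these deposited files and 2 deposited log10 columns (the scanner's ratio and the value table) were used. Ratios of Flag-IP to input were taken on the log2 scale in Python 3.11.15 (pandas 2.3.3, numpy 2.4.6), leaving out control spots and 19 and 38 outlier-marked probes, and centred on each array's median (0.06 and 0.07), with no loess or quantile step. Windows were medians of 3 probes with gaps of at most 1000 bp, counted for every gene of a probe. Genes came from the files' annotation, renamed through RefSeq tables of GRCm38.p6: 16334 of 16908 matched by accession, 276 by symbol, 164 by synonym and 134 not at all. Alternatives used limma 3.58.1 in R 4.3.3 (normexp with an offset of 50) and loess with a span of 0.3. The summary script was tested on simulated data.

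The members and lists were chosen with earlier results of these data known. Named are the 10 members with the highest window, the 10 with the highest gene-start mean, the 5 lowest of each, the complex II genes, Cycs, the isoform genes and at most the 2 highest genes of other lists. Other genes were named, after their values were seen, to complete a complex, a promoter pair, or a count of 5 or fewer, and Nrf1, Ppargc1a and Atp5d as examples, with Cox7b2 to complete the isoforms. Some genes that this rule selects are not reported here. With 1 array per promoter no test was run, and counts and medians stand beside those over all genes.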

Additional observations from a re-analysis of the deposited data

How the results depend on the processing

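Of 63 alternative values of the main counts and differences, 50 were counted as kept, 11 moved and 2 reversed. A count was kept if it changed by no more than a set ratio. A difference was kept if its sign held and it changed by less than the limit given below for single genes. For windows that limit is larger than the difference in medians itself, so a kept difference need not have kept its size. The 2 deposited log10 columns, counted here and for single genes, hold nearly the same ratios as the main values, so they could hardly move a value. Each added 6 to the main values counted as kept and 71 to the single-gene values that changed little. Of 604 alternative values of single named genes, 499 changed by less than a fixed limit and 105 moved. The limit was the members' median SD within the highest window, 0.371, or median standard error of the gene-start mean, 0.256. It was not each gene's own spread. In all, 12 values, from Atp5j, Cox4i1, Cox4i2, Cox6b2, Cox7a2, Cox8c and Uqcrfs1 (7 genes), changed sign. For each value that moved or reversed the cause was not tested, unless the alternative holds fewer genes. With normexp, 8 members had a window of at least 2, and without centring 5. Windows rose over all genes too: 8671 of 16693 reached 1 with normexp and 8047 without centring, against 7236 as reported. The shares of all genes at 2 are not given here for the alternatives. With the brightness trend removed, 24 had a window of at least 1 (29.6% against 35.5% of all genes), 1 a window of at least 2 and 9 a gene-start mean of at least 1, and the difference in median highest window was -0.022. With windows of 5 probes, 30 members reached 1 and 1 reached 2, and the shares of all genes are not given here. Within 1000 bp of the start, 6 members had a mean of at least 1 (7.41% against 5.74%) and the isoform difference was -0.0087, and within 250 bp it was 0.91. Without members that share a divergent probe (chosen after seeing the data, as were counting windows by their middle probe and leaving out the 4 non-subunits), 30 of 53 had a window of at least 1 and 17 a gene-start mean of at least 1. These shares were 56.6% and 32.1%, against 39.4% and 9.50% of all genes without a divergent probe. No paired analysis was possible because each promoter was on 1 array with no replicate. The planned expression alternatives were not run, since the probe sets were not paired with genes here. Signal over background limits the dim probes: 360 of the members' 365 start probes were well above it in both channels.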
